A study of Mus musculus with 6 samples.

Results

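Coenzyme Q, or ubiquinone, is the lipid that carries electrons through the inner mitochondrial membrane. Its ring and its long isoprenoid tail are made separately and joined by COQ2, after which a group of COQ proteins on the matrix side of the membrane modifies the ring by hydroxylation, methylation and decarboxylation. The finished molecule receives electrons from complex I, complex II and several other dehydrogenases and passes them to complex III, and COQ10A and COQ10B are lipid-binding proteins that are needed for its normal use in respiration rather than for its synthesis. Oxidative muscle, rich in mitochondria, depends on this carrier.

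The genes followed here are 10 of the 24532 in the deposited table, found by their symbols: the 8 synthesis genes *Pdss1*, *Coq2*, *Coq3*, *Coq4*, *Coq5*, *Coq6*, *Coq7* and *Coq9*, and the COQ10 paralogs *Coq10a* and *Coq10b*. *Coq10b* was selected on its measured count, which fell strongly between the WT libraries and the libraries labelled *Sirt6* KO, so its difference between the groups is given as values with no test. The other 9 were taken as its paralog and its pathway. All 10 passed the filter on low counts.

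RNA of gastrocnemius (GAS) muscle was sequenced from C57BL/6 male mice of about 20 weeks, with 3 libraries labelled WT and 3 labelled *Sirt6* KO. Both groups carried the *Sirt6* flox/flox alleles, and the *Sirt6* KO mice also carried *Myl1-Cre*, whose recombinase acts mainly in type II (fast) fibers, so that other fibers and the other cells of the muscle can keep *Sirt6*. The WT mice had no Cre, so an effect of the Cre allele and one of the deletion cannot be told apart. The study asked which transcripts in this muscle differ when *Sirt6*, a histone deacetylase gene, is deleted there.

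The libraries held between 44845763 and 63016899 counts on genes, and 1 count was worth 0.0165 to 0.0212 normalized CPM (counts divided by the TMM-scaled size of the library). *Sirt6* itself went against the labels, at 2.77, 2.23 and 2.88 CPM in WT and 7.81, 7.44 and 6.68 in *Sirt6* KO (edgeR's quasi-likelihood test, log2 fold change 1.48, standard error (SE) 0.17, Benjamini-Hochberg adjusted p = 0.0113), and counts per gene do not show which exons the reads came from. The groups are therefore named by their labels, and every direction below rests on those labels. All 6 genes that mark skeletal muscle fibers were counted in every library. The 7 slow-fiber genes summed to 3570, 2944 and 132 CPM in WT libraries 1, 2 and 3 and to 359, 2099 and 500.3 in *Sirt6* KO libraries 1, 2 and 3, so WT libraries 1 and 2 and *Sirt6* KO library 2 stood apart from the other three across the groups. The summed markers of other cells lay between 46.6 and 297 CPM for erythroid cells, 129 and 239 for endothelium, 356 and 679 for fibroblasts, 4.45 and 118 for adipocytes, 10.5 and 32.0 for Schwann cells, 17.5 and 33.2 for macrophages and 1.20 and 62.4 for heart muscle. None of these sums separated the groups.

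*Coq10b* was selected for its fall in this contrast, so its place as the member with the widest difference follows from that choice and is no finding. The same holds for any comparison of that difference with the one of its paralog *Coq10a*, whose *Sirt6* KO mean was 73.4% of its WT mean. *Coq10b* was counted 1811, 1933 and 927 times in WT libraries 1, 2 and 3, and 430, 440 and 292 times in *Sirt6* KO libraries 1, 2 and 3. On the normalized scale these were 36.3, 41.0 and 16.2 CPM against 7.35, 7.26 and 5.30 CPM. Every *Sirt6* KO library lay below every WT library, and WT library 3 lay closer to the *Sirt6* KO libraries than the other WT libraries did. The mean was 31.2 ± 13.2 CPM (SD, n = 3) in WT and 6.64 ± 1.16 (SD, n = 3) in *Sirt6* KO, which is 21.3% of the WT mean. Its fitted log2 fold change, *Sirt6* KO minus WT, was -2.23 (SE 0.34), in place 108 from the lowest among the 13801 genes tested. In bulk tissue, fewer cells of a type and less RNA per cell cannot be told apart. Without WT library 3 the log2 fold change was -2.54, without WT library 2 it was -1.98, and it stayed between these values when each other library was left out.

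*Coq10b* (NCBI gene 67876) lies on the forward strand of chromosome 1 of GRCm38, from 55052770 to 55072702. The stretch upstream of its start is shown because the study follows CREB, the factor that binds the cAMP response element (CRE) TGACGTCA and its half-site TGACG, and because *Coq10b* and *Coq10a* differed in how often that half-site occurred. The capitals mark the half-site, which reads CGTCA where it lies on the other strand. The sequences are RefSeq's on GRCm38.p6, 5′ to 3′ on the strand of the gene, each ending at the base before an annotated start, at chr1:55052520-55052769 for *Coq10b* and at chr10:128368981-128369230 on the reverse strand for the downstream of 2 annotated starts of *Coq10a*.
*Coq10b*: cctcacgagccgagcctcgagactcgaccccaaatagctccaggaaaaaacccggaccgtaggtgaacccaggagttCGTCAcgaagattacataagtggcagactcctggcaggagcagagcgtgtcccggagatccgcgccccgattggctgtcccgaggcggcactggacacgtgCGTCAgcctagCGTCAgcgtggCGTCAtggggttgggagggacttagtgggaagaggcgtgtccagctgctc
*Coq10a*: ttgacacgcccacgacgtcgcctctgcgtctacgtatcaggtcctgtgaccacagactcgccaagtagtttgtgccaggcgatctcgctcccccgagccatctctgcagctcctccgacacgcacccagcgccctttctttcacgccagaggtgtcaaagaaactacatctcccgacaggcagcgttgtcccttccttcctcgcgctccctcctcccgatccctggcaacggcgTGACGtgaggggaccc

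The *Coq10b* stretch held 4 half-sites, all on the other strand, and 3 of them followed each other at intervals of 11 bases from start to start, beginning 72 bases before the gene's start. The *Coq10a* stretch held 1, which began 16 bases before its start, and the window of the upstream start of *Coq10a*, not printed here, held none. Among all 32851 RefSeq windows of 300 bases (250 before a start and 50 after it), 20.8% held at least 1 half-site on either strand and 0.231% held at least 4. The full CRE, which contains the half-site on both strands, was in none of the members' windows and in 1.79% of all windows. Of the 9 members with a window, which had 11 windows in all, 6 held a half-site. That count is per gene, whereas the 20.8% is per window. A share per gene or at matched GC content was not worked out, so an excess among the members was not tested. *Coq9*, with 2 half-sites, was next to *Coq10b* in number. *Pdss1*, *Coq3* and *Coq4* held none, and *Coq5* was not matched. AAGGTCA, a half-site of nuclear receptors, was in the window of *Pdss1* and in that of the upstream start of *Coq10a* (4.72% of all windows). The NRF1 core GCATGCGC was in the window of *Coq2* (2.71%), and the ETS core CCGGAAG in those of *Pdss1* and *Coq6* (8.86%). Each motif was searched on both strands. These matches are letters in a window, and binding was not measured in these data.

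*Coq10a*, the paralog, was the more abundant of the pair in every library. Its level was 366, 369.5 and 305 CPM in WT and 203, 309 and 252 CPM in *Sirt6* KO. *Sirt6* KO library 2 reached the range of WT, just above WT library 3, so the groups overlapped. The means were 347 ± 36.5 and 255 ± 53.3 CPM (SD, n = 3 each). The difference, -0.45 on the log2 scale (SE 0.18, 95% confidence interval -0.86 to -0.03), did not pass edgeR's quasi-likelihood test after adjustment over all genes (adjusted p = 0.122). *Sirt6* KO library 2 and WT library 3 are also the libraries whose slow-fiber genes departed most from the rest of their group. With the slow-fiber level as a covariate, it was -0.41 (SE 0.12, adjusted p = 0.0417), and over all 16 alternatives it lay between -0.66 and -0.31 with an adjusted p of 0.0417 to 0.302.

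**Figure D1:**
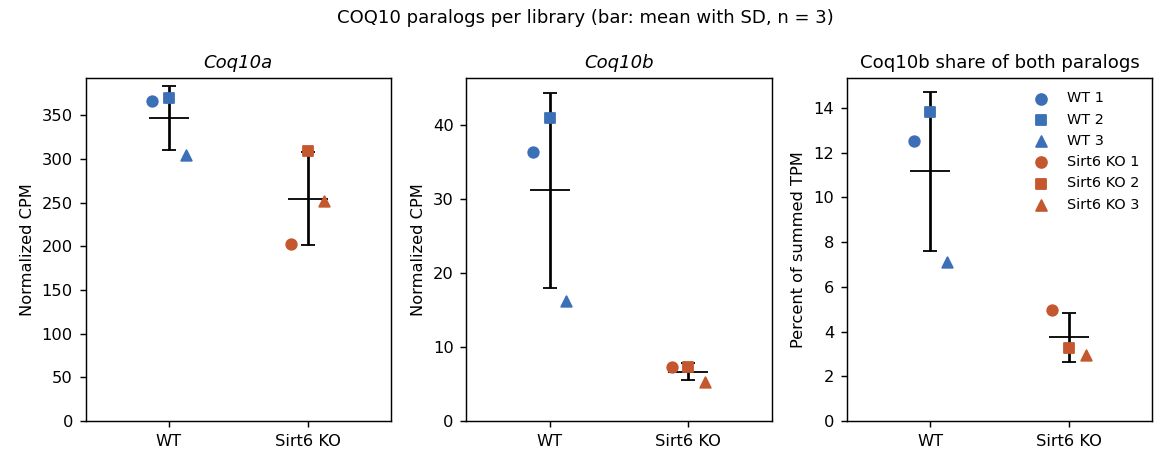
Normalized CPM of *Coq10a* (left) and *Coq10b* (middle) and the percentage of their summed TPM that was *Coq10b* (right), per library, with the group mean and SD (n = 3). *Coq10b* lay at 5.30 to 7.35 CPM in *Sirt6* KO and at 16.2 to 41.0 in WT, whereas the *Coq10a* values of the groups overlapped.

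On the deposited TPM scale, which is per transcript length and so allows 1 gene to be set against another, *Coq10b* made up 12.5%, 13.8% and 7.13% of the summed level of both paralogs in WT libraries 1, 2 and 3. In *Sirt6* KO libraries 1, 2 and 3 its share was 4.97%, 3.28% and 2.95%. *Coq10a* thus supplied most of the COQ10 transcripts in either group. The share of *Coq10b* in the libraries labelled *Sirt6* KO was below that of every WT library. *Coq10b* was selected for its fall, so this lower share largely follows from that choice and is no finding. The plot of the paralogs shows the share beside the levels of both genes.

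Of the 9 members other than *Coq10b*, 1 was lower in *Sirt6* KO at an adjusted p under 0.05 and none was higher. Over all 13801 genes tested, 8.39% were lower and 7.85% higher at that threshold, so 1 of 9 is near the background. Their median log2 fold change was -0.05, beside -0.02 over all genes, with 5 members negative and 4 positive, and the signs of *Pdss1*, *Coq2*, *Coq4* and *Coq6* turned when the GC trend was removed. In 8 of the 9 the groups overlapped, and in 1 every *Sirt6* KO library was below every WT library, which was also the case for 19.6% of all genes tested, while 20.3% lay apart in the other direction.

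**Figure D2:**
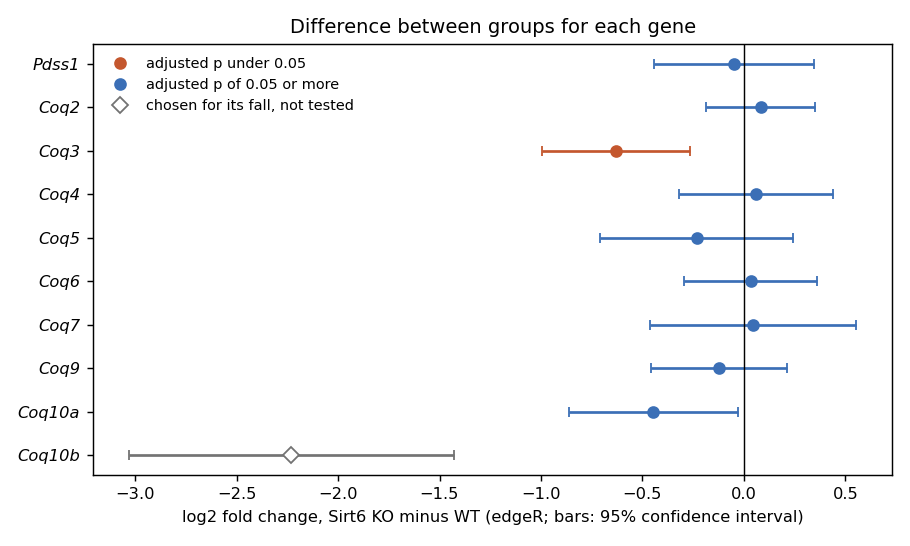
Log2 fold change of each member, *Sirt6* KO minus WT, from edgeR, with its 95% confidence interval. *Coq3* at -0.63 is the only tested member past an adjusted p of 0.05, the open diamond of *Coq10b* at -2.23 was not tested, and the intervals of *Pdss1*, *Coq2*, *Coq4*, *Coq5*, *Coq6*, *Coq7* and *Coq9* include 0.

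*Coq3* was the 1 synthesis gene that passed. It encodes the O-methyltransferase that acts on the ring, and the gene spans 21879646 to 21912163 on the forward strand of chromosome 4. The WT libraries held 34.6, 37.9 and 28.6 CPM of it and the *Sirt6* KO libraries 19.8, 25.7 and 19.9 CPM. The groups did not overlap, with WT library 3 and *Sirt6* KO library 2 again the closest. It fell from 33.7 ± 4.73 to 21.8 ± 3.42 CPM (SD, n = 3 each) and passed edgeR's quasi-likelihood test (log2 fold change -0.63, SE 0.16, adjusted p = 0.0371). The call was lost without WT library 1 (-0.60, adjusted p = 0.112), WT library 2 (-0.54, 0.113), *Sirt6* KO library 1 (-0.56, 0.126) or *Sirt6* KO library 3 (-0.57, 0.136). Calls fell over all genes too: 263, 162, 2 and 5 genes were lower in these fits, in that order, beside 1158 in the main fit. The call of *Coq3* was also lost with the trend of each library's log2 CPM over GC content removed (-0.44, 0.112), where 483 genes were lower. It was lost in limma's fit of log2(FPKM + 0.1) as well (-0.61, 0.0550), where 976 were.

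*Pdss1* and *Coq2* make and attach the isoprenoid tail. *Pdss1*, a subunit of the synthase that builds the tail, was at 8.34, 10.4 and 7.85 CPM in WT and 8.15, 9.88 and 7.61 in *Sirt6* KO. *Coq2*, the transferase that joins tail and ring, was at 42.8, 41.7 and 51.7 CPM in WT and 49.4, 48.8 and 46.1 in *Sirt6* KO. Neither gene separated the groups. Their log2 fold changes were -0.05 (95% confidence interval -0.44 to 0.34) and 0.08 (-0.18 to 0.35). *Coq2* spanned 1.24-fold from the lowest to the highest WT library and 1.07-fold in *Sirt6* KO, where the median gene tested spanned 1.39-fold and 1.25-fold.

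The remaining enzymes of the ring showed no difference that passed the test. *Coq6*, a hydroxylase, was at 21.9, 23.2 and 18.2 CPM in WT and 19.3, 24.4 and 21.01 in *Sirt6* KO (log2 fold change 0.03, 95% confidence interval -0.29 to 0.36). *Coq4*, which is needed to assemble the complex and process the ring, was at 7.02, 8.32 and 6.77 CPM in WT and 6.49, 8.35 and 8.19 in *Sirt6* KO (0.06, -0.32 to 0.44). Both genes overlapped between the groups, and their intervals leave room for a change as far as -0.32 or 0.44 on the log2 scale. *Coq5*, the C-methyltransferase, was at 117, 148 and 92.9 CPM in WT and 83.6, 121 and 101 in *Sirt6* KO (-0.23, -0.71 to 0.24). It had one of the wider intervals of the synthesis genes, and its lowest WT library was below its 2 highest *Sirt6* KO libraries.

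*Coq7* and *Coq9* act together, *Coq7* as the last hydroxylase and *Coq9* as the lipid-binding protein it works with. *Coq7* was at 39.1, 43.7 and 25.9 CPM in WT and 34.03, 45.5 and 32.5 in *Sirt6* KO (log2 fold change 0.04, 95% confidence interval -0.46 to 0.55). *Coq9* was at 314, 342 and 286 CPM in WT and 259, 334 and 272 in *Sirt6* KO (-0.12, -0.46 to 0.21). *Sirt6* KO library 2 lay above all WT libraries in *Coq7* and between WT libraries 1 and 2 in *Coq9*, and *Coq7* had its lowest value of all in WT library 3.

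Most members followed the same order of libraries within a group. WT library 2 was the highest of the WT libraries in 9 of the 10 members (29.1% of all genes tested), and WT library 3 the lowest in 9 (37.4% of all genes), with *Coq2* the exception in both. *Sirt6* KO library 2 was the highest of its group in 8 (36.1% of all genes), with *Coq2* and *Coq10b* the exceptions. WT library 3 also had the lowest slow-fiber sum of its group and *Sirt6* KO library 2 the highest, but in WT the highest sum was that of library 1 and not library 2. The part of fiber composition in the members' levels was not tested beyond the fit with that covariate. In that fit, *Coq3* was at -0.58 (SE 0.10, adjusted p = 0.00751) and *Coq10b* at -2.004 (SE 0.20). *Coq3* and *Coq10a* were the 2 tested members of 9 that passed, both lower. Over all 13801 genes tested, that fit called 2058 lower and 2029 higher, where the main fit called 1158 and 1084. *Coq10b* in *Sirt6* KO library 2 was at 7.26 CPM, beside 7.35 and 5.30 in the libraries with lower slow-fiber sums.

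**Figure D3:**
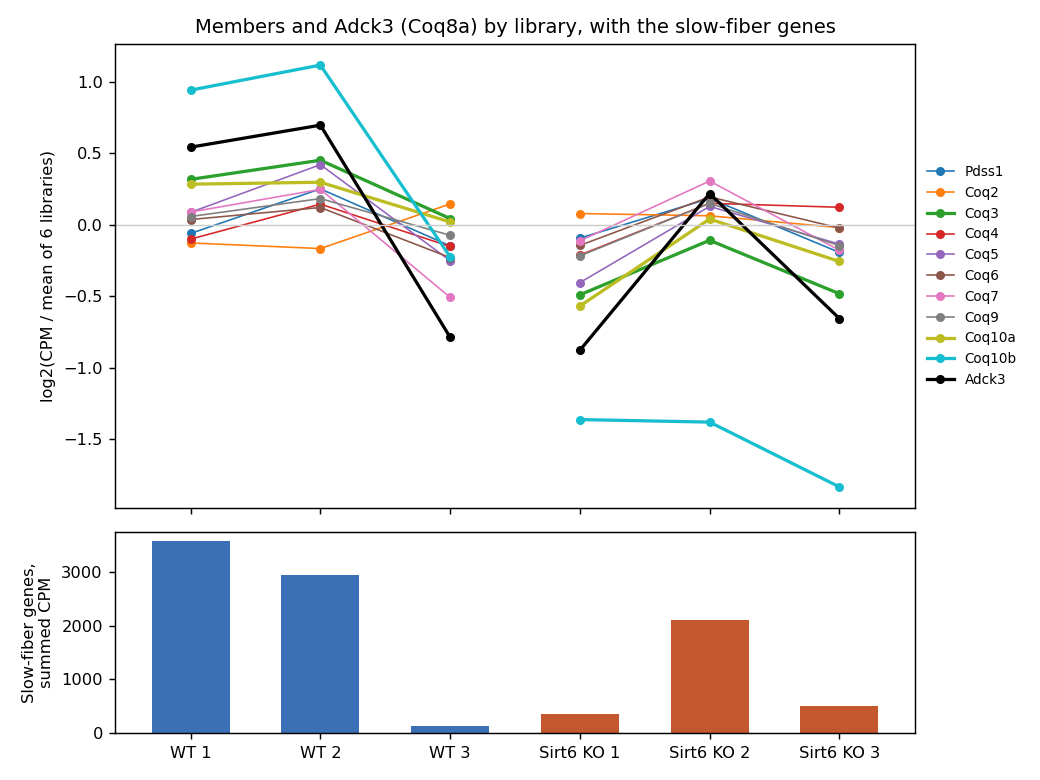
Upper panel, log2 of each gene's normalized CPM over its mean of the 6 libraries, for the 10 members and *Adck3*. Lower panel, the summed CPM of 7 slow-fiber genes, which was 3570, 2944 and 2099 in WT 1, WT 2 and *Sirt6* KO 2 and at most 500.3 in the other three. *Adck3*, *Coq5* and *Coq7* were lowest of their group in WT 3 and highest of their group in *Sirt6* KO 2, whereas *Coq10b* was not highest in *Sirt6* KO 2.

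In deposited TPM, the order of the members in WT muscle ran from *Coq9* (409 ± 71.7, SD, n = 3) and *Coq10a* (306 ± 62.3) through *Coq5* (133 ± 39.3), *Coq7* (88.4 ± 29.4), *Coq2* (57.7 ± 2.61), *Coq10b* (40.6 ± 19.6), *Coq6* (29.1 ± 6.23) and *Coq3* (28.5 ± 6.44) to *Pdss1* (11.9 ± 2.52) and *Coq4* (5.49 ± 0.977). Of the 9 neighbouring pairs in this order, 4 had ranges that did not overlap in WT, namely *Coq10a* above *Coq5*, *Coq2* above *Coq10b*, *Coq3* above *Pdss1* and *Pdss1* above *Coq4*. The ranges of the other 5 pairs overlapped, although *Coq9* was above *Coq10a* and *Coq5* above *Coq7* within each of the 6 libraries. In *Sirt6* KO, *Coq10b* moved from place 6 to place 9, at 7.75 ± 1.502 TPM (SD, n = 3), below *Coq6* (27.2 ± 2.76), *Coq3* (16.8 ± 2.43) and *Pdss1* (10.6 ± 1.42), and the other 9 genes stayed in the same order among themselves. The move of *Coq10b* largely follows from its selection for its fall. *Coq9* alone gave 52.3% to 55.7% of the summed TPM of the 8 synthesis genes in WT and 53.2% to 53.4% in *Sirt6* KO. TPM is scaled within each library and without TMM, so the TPM values were used for order and shares and not for testing.

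**Figure D4:**
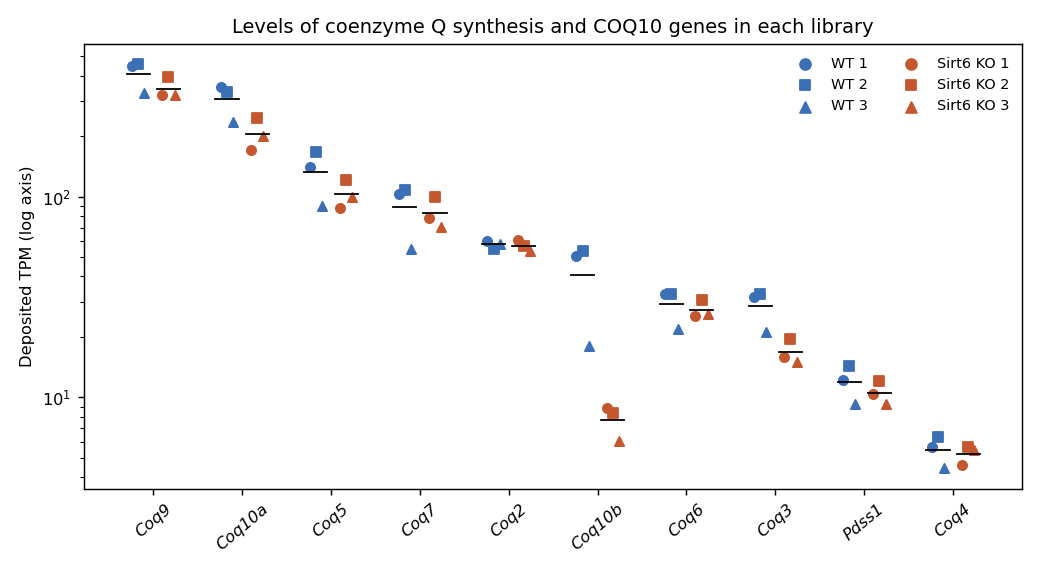
Deposited TPM of the 10 members in each library on a log axis, ordered by the WT mean (black lines: group means). *Coq10b*, with a mean of 40.6 in WT and 7.75 in *Sirt6* KO, dropped below *Coq6*, *Coq3* and *Pdss1*, which each moved up by 1 place, and *Coq9* and *Coq10a* are the highest in both groups.

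The partner genes of coenzyme Q were described by 4 lists, with 40 of 42 listed genes in the table and all 40 tested. At an adjusted p under 0.05, 1 was lower and 1 was higher in *Sirt6* KO, both subunits of complex III, where 8.39% of all genes tested were lower and 7.85% higher. The median log2 fold change of the 40 was -0.17, beside -0.02 over all genes. Without WT library 3 the counts were 8 lower and 4 higher, where 2235 and 2350 of all genes tested were called. Without any other single library they were 0 and 0, where all genes gave 2 to 457 lower and 6 to 442 higher. *Choldh* and *mt-Cytb* were not analysed here.

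Of the 9 other genes of the synthesis, none passed (median log2 fold change -0.29). *Pdss2*, the partner subunit of *Pdss1*, was at 19.8, 23.0 and 19.7 CPM in WT and 13.3, 18.7 and 14.7 in *Sirt6* KO, without overlap, but it missed the threshold (log2 fold change -0.42, SE 0.15, adjusted p = 0.0992). *Adck3*, now named *Coq8a*, encodes an atypical kinase of the synthesis complex. It was at 943, 1049 and 375 CPM in WT and 352, 753 and 411 in *Sirt6* KO (log2 fold change -0.64, SE 0.43, adjusted p = 0.317), and its high libraries were WT libraries 1 and 2 and *Sirt6* KO library 2, as for the slow-fiber genes. *Fdx1l*, now *Fdx2*, a ferredoxin, was at 18.7, 21.9 and 31.8 CPM in WT and 34.6, 38.0 and 36.7 in *Sirt6* KO (0.59, SE 0.19, adjusted p = 0.0742).

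None of the 9 genes of the mevalonate pathway and isoprenoid supply passed either (median -0.20). *Ggps1*, which makes geranylgeranyl diphosphate, came closest, at 15.8, 15.9 and 18.9 CPM in WT and 12.7, 12.4 and 12.9 in *Sirt6* KO (log2 fold change -0.41, SE 0.12, adjusted p = 0.0512). *Mvk*, the mevalonate kinase gene, was at 0.36 (SE 0.14, adjusted p = 0.119), so the values of the list lay on both sides of 0.

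Of 13 enzymes that feed electrons to ubiquinone or use it outside complexes I and III, none passed (median -0.12). The complex II subunits *Sdhc* and *Sdhd* were at -0.06 and -0.03, and *Sdhb* was at -0.43 (SE 0.28, adjusted p = 0.296). *Etfdh*, which passes electrons from fatty acid oxidation to ubiquinone, was at 172, 224 and 121 CPM in WT and 116, 138 and 110 in *Sirt6* KO (-0.51, SE 0.22, adjusted p = 0.145).

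Complex III, which oxidizes ubiquinol, had 1 subunit called in each direction among 9 (median -0.02). *Uqcrb* fell from 335 to 211 CPM on average, with 323, 391 and 292 CPM in WT and 186, 239 and 207 in *Sirt6* KO (log2 fold change -0.67, SE 0.16, adjusted p = 0.0325). *Uqcr10* rose from 161 to 230.4 CPM, with 167, 165 and 149.8 in WT and 223, 251 and 217 in *Sirt6* KO (0.52, SE 0.12, adjusted p = 0.0279). Each of the 2 calls stood in 1 of the 6 fits that left out a library, that without WT library 3, and the direction stayed in all. The other 7 subunits lay between -0.43 and 0.18.

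**Figure D5:**
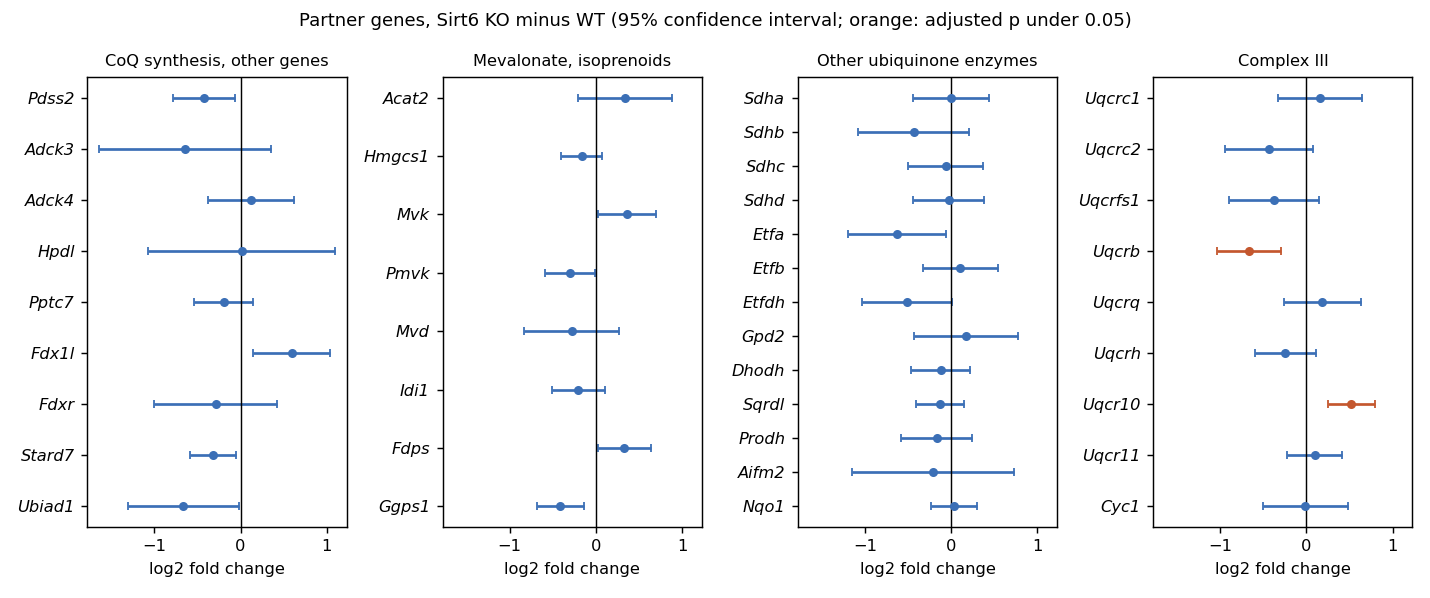
Log2 fold change, *Sirt6* KO minus WT, with 95% confidence intervals, of partner genes in 4 lists. The orange points are the calls at an adjusted p under 0.05, *Uqcrb* at -0.67 and *Uqcr10* at 0.52, and the other genes shown did not pass.

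The genes on either side of the paralogs were measured too. *Hspd1*, a mitochondrial chaperonin gene that lies 5133 bases beyond the end of *Coq10b* on the opposite strand, was at 367, 305 and 260 CPM in WT and 156, 179 and 161 in *Sirt6* KO (log2 fold change -0.91, SE 0.15, adjusted p = 0.0163). *Sf3b1*, on the other side, was at -0.42 (adjusted p = 0.0917). *Coq10b*, between them, was at -2.23. *Cs*, the citrate synthase gene beside *Coq10a*, was at -0.25 (adjusted p = 0.319), and *Ankrd52* at -0.38 (adjusted p = 0.0679). In GENCODE M21, 4 members overlap a counted gene on the opposite strand by 38 to 1010 bases (*Pdss1* with *Abi1*, *Coq4* with *Trub2*, *Coq6* with *Fam161b* and *Coq9* with *Ciapin1*). The longest overlap was that of *Coq4* with *Trub2*, which was higher in *Sirt6* KO (0.45, SE 0.10, adjusted p = 0.0275). *Abi1*, which overlaps *Pdss1* by 194 bases, was lower in edgeR's quasi-likelihood test (-0.61, SE 0.14, adjusted p = 0.0306). Whether the counting used the strand is not given in the sources used here, so reads in these overlaps cannot be told apart. *Coq10b* itself contains a processed pseudogene, *Gm17971*, of 806 bases on the same strand, which was not analysed here.

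The study follows *Creb1* and *Ppargc1a*, the gene of the coactivator PGC-1α, which promotes mitochondrial gene expression. *Ppargc1a* was at 764, 1703 and 515 CPM in WT and 45.6, 170 and 92.2 in *Sirt6* KO, and *Creb1* at 33.96, 28.8 and 25.3 against 16.7, 12.9 and 15.6. Both fell in edgeR's quasi-likelihood test (log2 fold changes -3.28 and -0.96, adjusted p = 0.0186 and 0.0144).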

How the data were processed

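Libraries and columns were matched by the sample titles and descriptions. The submitters' processing notes name HISAT2 2.1.0, Bowtie2 2.3.4.1 and StringTie 2.1.3b on mm10 (GRCm38), whereas STAR is given in the study's reporting summary. The deposited table holds raw whole-number counts by gene from the authors. It also holds the authors' FPKM, deposited after scaling by length and depth, and their deposited TPM, scaled to a fixed sum per library. It has no columns of the authors' own comparisons. The labels name a stranded mRNA kit and the methods TruSeq RNA v2.

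Counts were fitted in R 4.3.3 with edgeR 4.0.16 (filterByExpr, 13801 of 24532 genes kept, TMM, quasi-likelihood test, Benjamini-Hochberg adjustment over all genes tested at 0.05), and the scripts were tested on simulated data. Standard errors and 95% confidence intervals derive from that test. The common biological coefficient of variation was 24.1%. The reporting summary speaks of biological replicates for the study's experiments, but the labels do not tie each library to an animal, so p-values measure the spread between these libraries. Alternatives were DESeq2 1.42.0, its size factors, other filters (none, 10 counts in every library, FPKM above 1), limma 3.58.1 on quantile-normalized log2(FPKM + 1) or log2(FPKM + 0.1), a replicate block, each library left out, removal of a lowess trend over GC content (span 0.3, GC of GENCODE M21 transcripts, known for 99.4% of genes) and the mean log2 level of the slow-fiber genes as a covariate.

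The members, gene lists, motifs and tests were chosen with earlier results of these data known. Genes were named by rule: *Sirt6*, the members, partner genes past the threshold, the genes most correlated with either COQ10 paralog, neighbours and overlapping genes, *Creb1* and *Ppargc1a*. Other partner genes and marker lists were named as values after they were seen. Some genes of these lists are not reported here by name.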

Additional observations from a re-analysis of the deposited data

How the results depend on the processing

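Of the 16 alternatives, none turned the direction of *Coq10b* (-2.54 to -1.85), *Coq10a*, *Coq3*, *Coq5*, *Coq9* or *Sirt6*. The order of the members by FPKM matched that by TPM, but the scales differ only by a factor per library, so this match is no check. The adjusted p of *Sirt6* rose to 0.0590 without *Sirt6* KO library 1 (log2 fold change 1.43) and 0.0652 without *Sirt6* KO library 3 (1.54), within a range of 1.37 to 1.55 over the 6 fits that left out a library. *Coq10a* passed only with the slow-fiber covariate (-0.41). The cause of these changes was not tested. Members near 0 changed sign. Over the 13719 genes tested with a known GC content, that content correlated with the log2 fold change (Spearman's coefficient 0.33). With the GC trend removed *Pdss1* was at 0.29, *Coq2* at -0.084, *Coq4* at -0.038 and *Coq6* at -0.090. With a library left out, *Pdss1* ranged from -0.16 to 0.078 (positive without WT library 2 or *Sirt6* KO library 3), *Coq6* from -0.063 to 0.11 and *Coq7* from -0.15 to 0.20 (both negative without WT library 3 or *Sirt6* KO library 2), none past the threshold.

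The number of genes lower and higher was 1158 and 1084 in the main fit, 1801 and 1730 with DESeq2, 483 and 470 with the GC trend removed, and 2058 and 2029 with the slow-fiber covariate. Leaving out a library gave 2 to 2235 lower and 6 to 2350 higher, with the fewest without *Sirt6* KO library 1 (2 and 6) or 3 (5 and 8) and the most without WT library 3. Of the 9 members, 0 were lower with log2(FPKM + 0.1) or the GC trend removed and 2 with the covariate, and 0 to 1 with a library left out. None was higher in any fit. In the main edgeR fit 2 of the 9 had an unadjusted p under 0.05, both lower, beside 4875 of all 13801 genes tested. Partner genes lower numbered 3 with DESeq2, 2 each with its size factors, with 10 counts in every library and with FPKM above 1, 7 with the covariate and 0 to 8 with a library left out. Those higher numbered 2 each with DESeq2 and both limma fits, 0 with the GC trend removed, 3 with the covariate and 0 to 4 with a library left out.

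With the replicate number as a block, 1018 genes were lower and 904 higher, and it changed no call of a member. The numbers are shared only as labels: the deviations of same-numbered libraries correlated at -0.11, 0.26 and 0.16, and not every library correlated best with its own number.

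Counts per member ran from 292 to 20267. How far depth, as opposed to the spread between 3 libraries, set the width of the intervals was not tested.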

Other observations

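The genes whose normalized log2 CPM was most like that of *Coq10b* over the 6 libraries were *5930430L01Rik*, *Thbd*, *Prrx1*, *Gch1* and *Tpm4*, with Pearson's r of 0.996 to 0.999. These were picked as the highest of 13801 genes over 6 libraries that share the split between the groups, so r is a description and carries no p. *Thbd*, which encodes thrombomodulin of the endothelial surface, was at 53.6, 61.2 and 30.2 CPM in WT and 17.5, 18.8 and 13.9 in *Sirt6* KO. *Tpm4*, a tropomyosin gene, was at 63.3, 74.3 and 36.2 CPM in WT and 19.7, 22.7 and 16.0 in *Sirt6* KO. *Gch1*, the first enzyme of tetrahydrobiopterin synthesis, was at 5.03, 5.81 and 3.33 CPM in WT and 2.36, 2.33 and 2.03 in *Sirt6* KO.

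For *Coq10a* they were *Acy1*, *Nup37*, *Cyp1b1*, *Oxct1* and *Mterf4* (r of 0.992 to 0.997). *Oxct1*, which encodes the enzyme that activates acetoacetate for ketone body use, was at 677, 827 and 418 CPM in WT and 157, 490.3 and 297 in *Sirt6* KO. *Acy1*, an aminoacylase gene, was at 8.70, 8.19 and 6.07 CPM in WT and 3.01, 6.38 and 4.59 in *Sirt6* KO. The lists of the paralogs shared no gene, but each holds only the few highest of 13801 genes. The lack of a shared gene therefore says little about the pair.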
